A study of Mus musculus with 8 samples.

Results

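Erythroblasts were compared with Kit+ stem and progenitor cells, from which they arise, in marrow of mice with the JAK2 V617F mutation. The comparison rests on 4 of the 8 RNA sequencing libraries of a mouse bone marrow study, those labelled Plek2+/+: 2 of erythroblasts and 2 of progenitors, described over all genes that passed a filter on low counts. The mice were C57BL/6, 4 months old, and all of them carried an activated copy of the kinase gene Jak2 on 1 allele (JAK2 V617F/+), so no library here comes from marrow with unaltered Jak2. Erythroblasts were taken from marrow by the surface antigen TER119, which red cell precursors of several stages and red cells share. Progenitors were taken by the stem cell factor receptor Kit from marrow depleted of cells with lineage markers; which markers were used was not given in the sources read. The other 4 libraries are the same populations from mice labelled JAK2 V617F/+ Plek2-/-. Their values are given only where named, but the fit behind all calls held all 8 libraries, which share 1 estimate of the spread. It is not stated that duplicates were taken from different animals. A p-value here rests only on how far duplicates spread, pooled over all 8 libraries, and that spread may be technical.

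A red cell is built in a short series of divisions. Erythropoietin acts on its receptor and, through JAK2 and STAT5, keeps the precursors alive; the transcription factors GATA1, TAL1 and KLF1 turn on globin, heme and membrane genes while stem cell genes are shut down; and the precursor then condenses its nucleus and clears its organelles. JAK2 V617F signals without the hormone and is the driver of polycythemia vera. Plek2, which encodes pleckstrin-2, is a target of this pathway in erythroblasts and acts on the actin cytoskeleton.

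The libraries held 21168532 and 19975810 counts in erythroblasts and 16038035 and 22347640 in progenitors. Replicates lay close together beside the distance between the populations: the first principal component of all 8 libraries, 89.03% of the variance, separated erythroblasts from progenitors, and the second, 3.47%, the labels. Levels are given as CPM, read counts divided by the library total in the usual way, with the totals scaled by TMM, a method that assumes that most genes do not differ. A gene was called at an edgeR adjusted p below 0.05, and a log2 fold change above 0 means a higher level in erythroblasts. The scaling matters here, because the 100 most abundant genes took 30.9% and 31.5% of the counts in erythroblasts and 17.7% and 16.9% in progenitors. With library sizes only, the median log2 fold change of all genes moved from -0.058 to -0.87, a shift of 0.81, and a gene or list not far above 0 on the TMM scale lies below 0 on the other. Differences below are relative to the TMM scale, and lists whose median changes sign are given with both values. Of the 204 called genes named with values here, all 204 had both erythroblast libraries on 1 side of both progenitor libraries, which 89.1% of all tested genes also had. In bulk RNA, fewer cells of a type and less RNA per cell cannot be told apart.

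The libraries carried the RNA their sorts select for. The summed level of 10 erythroblast markers was 114849 and 123457 CPM in erythroblasts and 1052 and 972 CPM in progenitors, and 8 of the 10 were called higher; the other 2, the alpha globin genes Hba-a1 and Hba-a2, had 0 to 2 reads in each of the 4 libraries. Of all tested genes 36.0% were called higher and 37.8% lower. The 8 stem and progenitor markers summed to 76.4 and 71.3 CPM in erythroblasts and 534 and 530.2 CPM in progenitors, with 8 of 8 lower. Kit, on which the progenitors were sorted, stood at 21.2 and 16.2 CPM in erythroblasts against 144 and 154 CPM in progenitors, which checks the labels and is not a finding. Plek2, the gene the labels differ in, had 1770 and 1894 reads in erythroblasts and 29 and 21 in progenitors. In the libraries labelled Plek2-/- it had 616 and 781 reads in erythroblasts and 130 and 173 in progenitors, so its reads do not show the loss that this label names; whether the deleted part lies outside the counted exons was not given in the sources read. Jak2 itself was 2.23-fold higher in erythroblasts, at 284 and 329 against 138 and 137 CPM. Xist, the RNA of the inactive X chromosome, ran from 2523 to 3044 CPM in all 4 libraries, and the Y-linked Ddx3y had 2 to 5 reads, so the sex pattern does not differ between the populations compared. The libraries labelled Plek2-/- had the opposite pattern, with Xist at 2.13 to 3.60 CPM and Ddx3y at 117 to 280.4 CPM, so label and sex cannot be told apart wherever the labels are compared.

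Both sorts also held RNA of other cell types, shown in the plot of marker levels. The 5 neutrophil markers in the table summed to 17199.9 and 19863 CPM in erythroblasts and 6189 and 3584 CPM in progenitors, the 6 macrophage markers to 971 and 903 CPM in erythroblasts and 305 and 329 CPM in progenitors and the 4 endothelial and stromal markers to 159 and 149 CPM in erythroblasts and 25.3 and 22.1 CPM in progenitors. Most of the stromal sum was Col1a1. The wider endothelial and stromal list summed to 465 and 447 CPM in erythroblasts and 655 and 684 CPM in progenitors. The 4 granulocyte progenitor markers were lower in erythroblasts, at 730.5 and 839 CPM against 4199 and 4771 CPM in progenitors. Megakaryocyte markers stood at 218 and 150.3 CPM in erythroblasts and 138 and 138 CPM in progenitors, B cell markers at 97.6 and 82.7 CPM in erythroblasts and 157 and 122 CPM in progenitors, and T and NK cell markers at 19.6 and 19.6 CPM in erythroblasts and 41.00 and 38.6 CPM in progenitors. Of all the markers, Hba-a1 alone was at 0 in all 4 libraries. The part of these cells in the differences between the sorts was not tested.

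**Figure D1:**
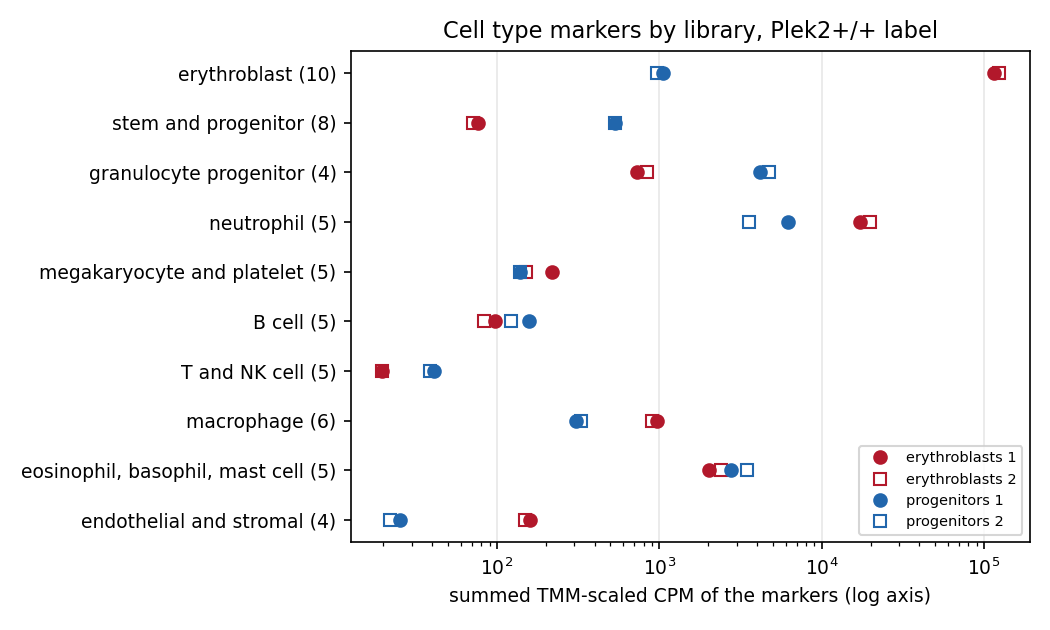
Summed TMM-scaled CPM (log axis) of the marker genes of 10 cell types, with the number of markers in brackets, in each of the 4 libraries labelled Plek2+/+. Red symbols are erythroblasts and blue symbols progenitors, filled circles replicate 1 and open squares replicate 2. Erythroblast markers sit at 114849 and 123457 CPM in the erythroblast libraries and at 1052 and 972 CPM in the progenitor libraries. Neutrophil, macrophage and stromal markers also sit higher in the erythroblast libraries, and most of the stromal sum is Col1a1.

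Almost 3 in 4 genes were called between the populations on the TMM scale. Of 13365 tested genes, 9865 (73.8%) were called, 4818 (36.0%) of them higher and 5047 (37.8%) lower in erythroblasts, and 2389 (17.9%) and 2572 (19.2%) were both called and over 2-fold apart. Tested directly against a 2-fold difference with edgeR's glmTreat, 1866 genes (14.0%) were higher and 1562 (11.7%) lower. With library sizes only, the calls split into 2111 higher and 9171 lower, or 18.7% higher instead of 48.8%. TMM assumes that most genes do not differ, which these calls do not meet. The split by direction and the sign of small differences thus depend on the scaling. The largest differences lay on the higher side, as the plot of all genes shows. Leaving out 27 called genes with 0 reads in both progenitor libraries and 17 with 0 reads in both erythroblast libraries, whose fold has only a bound, 496 genes were over 8-fold higher and 196 over 8-fold lower, and 84 against 1 passed 64-fold. With library sizes only the order at 8-fold turned, with 316 higher and 624 lower, whereas 49 against 3 passed 64-fold. Among genes at 100 CPM or more in either population the highest called ratio was 1677-fold, for Beta-s, and the lowest was 12.1-fold lower, for Gria3. At this level abundant erythroblast genes could be nearly missing from progenitors, while no called gene was more than 12.1-fold lower. Genes with 0 reads in both libraries of 1 population had been left out beforehand. The part of other cells in each sort was not tested.

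**Figure D2:**
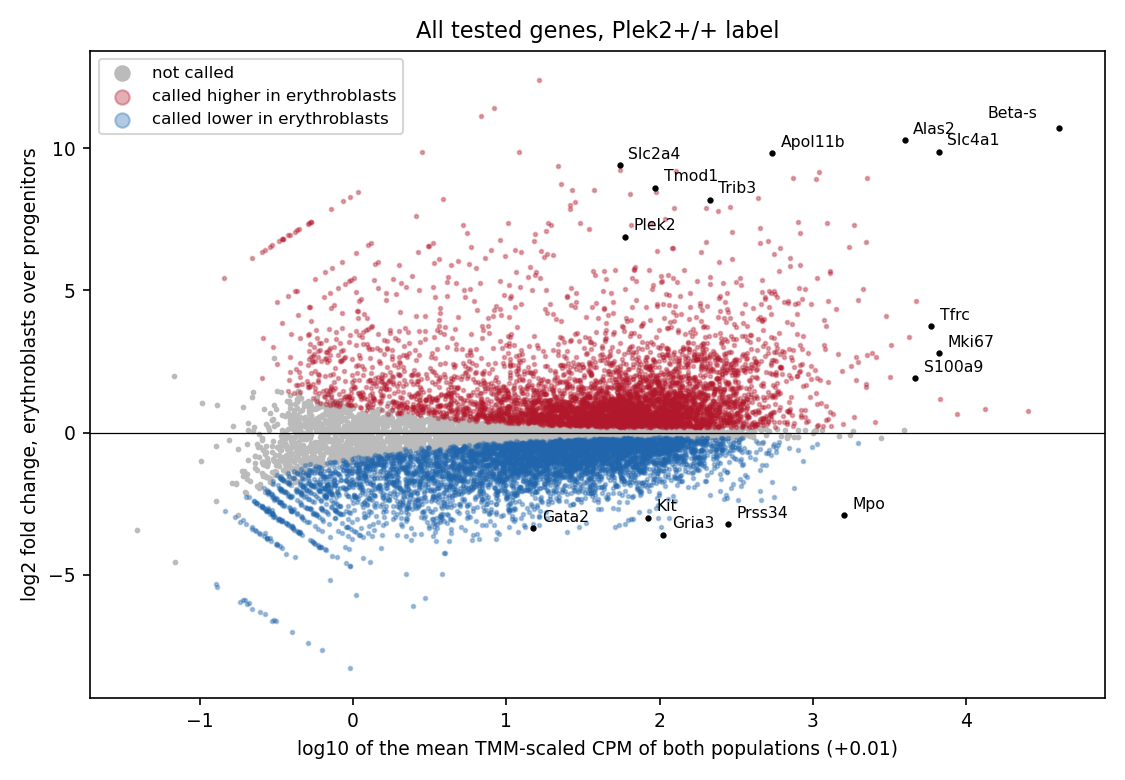
Each point is 1 of 13365 tested genes: the x axis is the log10 of the mean TMM-scaled CPM of both populations, and the y axis the fitted log2 fold change of erythroblasts over progenitors in libraries labelled Plek2+/+. Red points were called higher and blue points lower at an edgeR adjusted p below 0.05; the diagonal rows at the left are genes with 0 or few reads in 1 population, whose fitted values are no measured folds. At high levels the red cloud reaches above 10 and the blue cloud stops near -4.

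Among the 12 genes with the highest ratios at this level were Beta-s (the adult beta globin gene Hbb-bs), Alas2, Slc4a1, Apol11b, Slc2a4, Hbq1b, Samd11, Trim10, Epb4.2 (now Epb42) and Tmod1. Beta-s lies on chromosome 7, 103826534 to 103828096 (mm10), and stood at 77775 and 83157 CPM in erythroblasts against 50.4 and 45.6 CPM in progenitors (log2 fold change 10.71, SE 0.42, edgeR adjusted p = 9.45e-11). Alas2 (chromosome X, 150547375 to 150570638), the first enzyme of heme synthesis in red cells, stood at 7661 and 8214 CPM in erythroblasts against 7.09 and 5.63 CPM in progenitors (log2 fold change 10.30, SE 0.31, edgeR adjusted p = 6.52e-12). Slc4a1 (chromosome 11, 102348824 to 102366203), the band 3 anion exchanger, stood at 12372 and 14122 CPM in erythroblasts against 15.7 and 12.3 CPM in progenitors (log2 fold change 9.89, SE 0.41, edgeR adjusted p = 1.70e-10). Both erythroblast libraries lay far above both progenitor libraries for each of these genes. The choice of genes required a lack of overlap, which 89.1% of all tested genes also had. The glucose transporter gene Slc2a4 (GLUT4) had 100.2 and 121 against 0.0939 and 0.202 CPM, from 2 and 6 reads in progenitors. Apol11b, of the apolipoprotein L family, had 1079.8 and 1091 against 1.08 and 1.25 CPM, and Samd11 had 251 and 263 against 0.423 and 0.438 CPM. Trim10, a ubiquitin ligase of erythroid cells, was 571-fold higher, and Tmod1, which caps the pointed ends of the short actin filaments of the red cell skeleton, 393-fold higher.

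The 12 lowest were Gria3, Cd34, Prss34, Met, Bcl2, Ptprs, Mcpt8, Il6st, Kit, Mpo, Chdh and Abca2, and their values ran from -3.60 to -2.75. Gria3 (chromosome X, 41400854 to 41678601), which encodes a subunit of a glutamate receptor, stood at 14.6 and 17.8 CPM in erythroblasts against 186 and 205 CPM in progenitors (log2 fold change -3.60, SE 0.12, edgeR adjusted p = 2.58e-11). Cd34, the sialomucin of stem cells, stood at 18.9 and 17.7 CPM in erythroblasts against 186 and 184 CPM in progenitors. Met, the receptor of hepatocyte growth factor, and Il6st, the signal chain gp130 shared by interleukin-6 family receptors, were 9.25-fold and 8.02-fold lower. Prss34 and Mcpt8 are proteases of basophils, and Mpo is the peroxidase of the first neutrophil granules: stem cell genes and genes of granulocyte precursors thus stood side by side. In the plot of the largest differences the replicate values of each gene nearly coincide beside the distance between the populations, for which the genes were chosen.

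**Figure D3:**
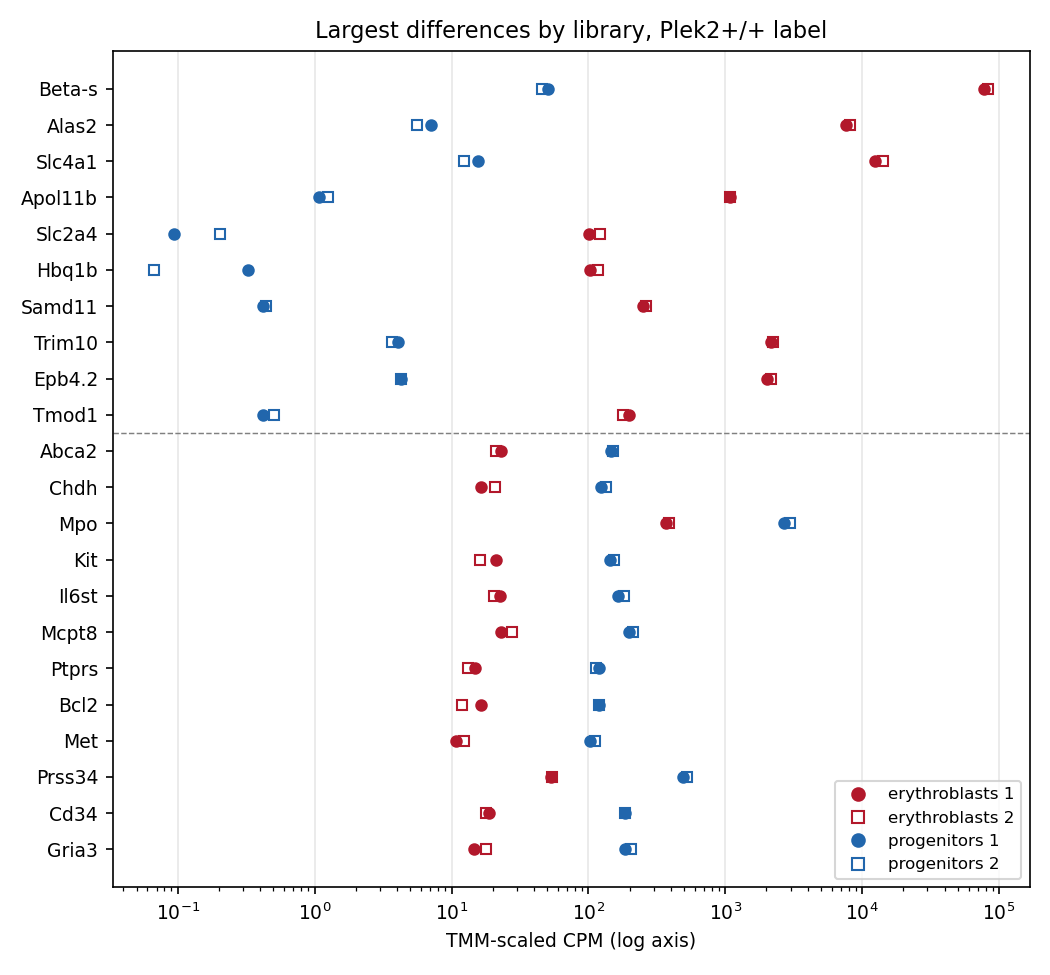
TMM-scaled CPM (log axis) of 10 of the 12 genes most higher (top) and of the 12 most lower (bottom, below the dashed line) in erythroblasts among genes at 100 CPM or more in either population, in each library labelled Plek2+/+. Red symbols are erythroblasts, blue symbols progenitors, circles replicate 1 and squares replicate 2. The populations do not overlap for any of the genes shown, which the choice of genes required and which holds for 89.1% of all tested genes.

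Promoters of 3 of the highest genes and of Alas1, the form of the heme enzyme that was lower, are shown because the first 3 are known targets of the erythroid factors GATA1 and KLF1 and Alas1 is the counterpart of Alas2. Capitals mark matches to AGATAA, the core that GATA factors bind, and to CCNCNCCC, a core of KLF factors (N is any base), on either strand; overlapping matches run together. Sequences are from RefSeq on GRCm38.p6, 250 bases before to 50 after the annotated start, on the strand of the gene, 5′ to 3′: Beta-s at chr7:103827879-103828178 (minus strand), Alas2 at chrX:150547167-150547466 (plus strand), Epb4.2 at chr2:121036828-121037127 (minus strand) and Alas1 at chr9:106247905-106248204 (minus strand, 1 of 2 starts listed for this gene).
Beta-s: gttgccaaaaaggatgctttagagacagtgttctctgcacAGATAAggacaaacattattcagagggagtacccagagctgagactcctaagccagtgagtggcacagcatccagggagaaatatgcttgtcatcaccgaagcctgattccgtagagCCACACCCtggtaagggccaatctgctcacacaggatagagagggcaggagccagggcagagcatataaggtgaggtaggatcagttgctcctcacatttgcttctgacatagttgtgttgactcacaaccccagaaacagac
Alas2: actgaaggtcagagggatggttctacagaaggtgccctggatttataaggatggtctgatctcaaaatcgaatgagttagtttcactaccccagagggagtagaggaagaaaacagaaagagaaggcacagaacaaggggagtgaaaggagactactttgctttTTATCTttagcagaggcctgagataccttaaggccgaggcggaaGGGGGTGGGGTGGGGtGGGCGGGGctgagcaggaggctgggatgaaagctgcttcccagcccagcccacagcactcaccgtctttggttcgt
Epb4.2: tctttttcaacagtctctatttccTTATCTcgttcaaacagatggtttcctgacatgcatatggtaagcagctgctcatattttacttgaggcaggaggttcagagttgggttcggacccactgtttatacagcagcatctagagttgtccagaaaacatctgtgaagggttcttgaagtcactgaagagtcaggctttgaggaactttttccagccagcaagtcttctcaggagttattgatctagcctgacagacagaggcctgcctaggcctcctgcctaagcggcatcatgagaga
Alas1: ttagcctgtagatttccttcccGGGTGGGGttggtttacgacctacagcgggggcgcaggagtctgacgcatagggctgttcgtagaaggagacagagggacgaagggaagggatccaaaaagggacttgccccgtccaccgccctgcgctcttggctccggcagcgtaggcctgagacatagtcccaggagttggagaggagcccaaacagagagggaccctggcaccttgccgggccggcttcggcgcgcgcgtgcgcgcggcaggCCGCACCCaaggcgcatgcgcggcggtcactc
The windows of Beta-s, Alas2 and Epb4.2 hold 1 AGATAA match each, on the gene's strand in Beta-s and on the other strand in Alas2 and Epb4.2, and that of Alas1 holds 0. CCNCNCCC has 1 match in Beta-s, 4 in Alas2, 2 in Alas1 and 0 in Epb4.2. Across all 27025 promoters of the table, 11.4% hold AGATAA and 49.1% hold CCNCNCCC. Among the 10359 tested genes that matched the table, the shares were 6.69% and 67.7%. A match describes the letters and not a bound site. A comparison of promoter motifs between higher and lower genes is void, because only 385 of 523 genes over 8-fold higher and 162 of 213 over 8-fold lower matched the table.

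Globin genes were higher in erythroblasts wherever they could be counted. Beta-s alone took 6.002% and 6.13% of all counts in the erythroblast libraries, the most of any gene. Of 14 listed genes of globins and their chaperone 11 were in the table, 5 were tested and all 5 were higher, beside 36.0% of all tested genes. The theta globin gene Hbq1b stood at 103 and 117 CPM in erythroblasts against 0.329 and 0.0674 CPM in progenitors, and its copy Hbq1a had 578 and 442 reads in erythroblasts and 0 in either progenitor library, which makes it at least 270.1-fold higher if a count of 0 allows 3 reads per library. The embryonic globins Hbb-y and Hbb-bh1 had 0 reads in progenitors and only 21 and 23, and 8 and 9, in erythroblasts, at least 11.8-fold and 4.55-fold higher. These bounds cover counting error only. Adult alpha globin cannot be read from these counts: Hba-a1 is listed at 0 and Hba-a2 at 1 and 2 reads in erythroblasts, and Hbb-b1 is also at 0. Alpha and beta globin genes come as near-identical copies, so the values of single copies are uncertain.

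Enzymes of heme synthesis were higher in erythroblasts along the route that red cells use. Of the list of heme synthesis and handling, 20 of 23 tested members were called higher and 2 lower, 19 of them over 2-fold higher (median log2 fold change 3.73, quartiles 2.04 to 4.75), where 36.0% and 37.8% of all genes were called. In order of the pathway the log2 fold changes were 10.30 for Alas2, 3.73 for Alad, 5.26 for Uros, 4.54 for Urod, 3.89 for Cpox, 4.23 for Ppox and 5.69 for Fech, which inserts the iron. Fech stood at 2391 and 2719.7 CPM in erythroblasts against 50.2 and 48.8 CPM in progenitors. The first enzyme exchanged its form: Alas1, the form used outside red cells, was lower at 97.3 and 109 CPM in erythroblasts against 249 and 269 CPM in progenitors (log2 fold change -1.33, SE 0.081, edgeR adjusted p = 7.48e-09). Counted per kilobase of exon, Alas2 was at 0.0632 times the level of Alas1 in progenitors and 198 times in erythroblasts. The genes that move glycine and heme precursors across the mitochondrial membrane were higher too, among them Slc25a38 at 3.46 and Abcb10 at 4.54. Heme breakdown genes were higher as well: Hmox1, heme oxygenase, stood at 3.73 and Blvrb at 4.56. The exception besides Alas1 was Flvcr1, the heme exporter (listed as Mfsd7b), at -0.22 (edgeR adjusted p = 0.0342), a call lost with DESeq2, without the filter on low counts and without any 1 of the 4 libraries.

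Most iron genes were higher as well, beside 36.0% of all tested genes called higher and 37.8% lower. Of the list of iron uptake and storage, 19 of 23 tested members were called higher and 3 lower, 15 over 2-fold higher (median 1.64); with DESeq2 and without erythroblast replicate 2 or progenitor replicate 2, 1 was lower. The transferrin receptor Tfrc, which brings iron into the cell, stood at 10766 and 11318 CPM in erythroblasts against 864 and 796 CPM in progenitors, and Slc25a37, mitoferrin-1, which brings it into the mitochondrion, at 2526 and 2549.9 against 52.97 and 50.9 CPM. The related mitoferrin-2, Slc25a28, was lower (-0.36), a call lost under each of these. Fth1, the heavy chain of the iron store ferritin, was 4.22-fold higher, Isca1, of iron-sulfur cluster assembly, 21.6-fold higher, and Ncoa4, which delivers ferritin for breakdown, 10.6-fold higher. Erythroferrone (listed as Fam132b), the hormone by which erythroblasts lower hepcidin, stood at 129 and 131 CPM in erythroblasts against 3.05 and 2.93 CPM in progenitors. The second transferrin receptor, Tfr2, was 2.01-fold higher, so that per kilobase Tfrc stood further above Tfr2 in erythroblasts than in progenitors: Tfr2 was at 0.103 times the level of Tfrc in progenitors and 0.0156 times in erythroblasts.

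Genes of the red cell membrane and its skeleton were higher with few exceptions, against 36.0% of all tested genes called higher and 37.8% lower. Of 35 tested members 31 were called higher, each over 2-fold, and 3 lower (median 3.83, quartiles 2.39 to 5.71). Epb4.2, protein 4.2, which ties band 3 to the skeleton, stood at 2006 and 2176 CPM in erythroblasts against 4.27 and 4.28 CPM in progenitors. Beta-spectrin, Sptb (listed as Spnb1), of the long rods of the skeleton, had a log2 fold change of 6.52, dematin (listed as Epb4.9) 8.26, ankyrin Ank1 5.05, protein 4.1 (listed as Epb4.1) 4.66 and beta-adducin Add2 3.87. Blood group genes moved with them: Rhd stood at 5.85, its partner Rhag at 4.97 and Kel at 5.68. Cd24a, a surface marker of erythroblasts and of other young blood cells, stood at 5193 and 6139 against 335 and 325 CPM. Those called lower were Cd44 (-0.75), an adhesion receptor that falls as erythroblasts mature, Add3 (-0.27, a call lost without any 1 of the 4 libraries), the adducin of other tissues, and Slc2a1 (-1.01), the glucose transporter GLUT1. Piezo1 (listed as Fam38a), the stretch-activated channel, was the member not called (-0.073, edgeR adjusted p = 0.541).

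The transcription factors of the red cell programme were higher over a wide range, beside 36.0% of all tested genes called higher and 37.8% lower. Of the erythroid transcription factor list, 20 of 23 tested members were called higher and 2 lower (median 2.30). Sox6, which supports red cell maturation, stood at 879.8 and 921 CPM in erythroblasts against 6.10 and 6.20 CPM in progenitors, a 146-fold difference and the highest of the list. Gata1, Tal1 and Klf1, the core activators, were 7.10-fold, 9.76-fold and 13.3-fold higher, with Klf1 at 622 and 756 against 52.8 and 50.8 CPM. E2f2 and Tfdp2, which form an E2F pair active in late erythroid divisions, stood at 1310.1 and 1406 against 95.1 and 95.7 CPM and 1394 and 1579 against 83.1 and 83.2 CPM, and Foxo3, of organelle clearance and antioxidant genes, was 6.23-fold higher. Cbfa2t3, a corepressor that binds TAL1 in immature cells, was lower (-1.10), as was the fetal globin repressor Bcl11a (-0.57).

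The erythropoietin receptor and several of its targets were higher, within a list whose shares of higher and lower members lay near those of all genes (36.0% and 37.8%). Of the erythropoietin receptor and JAK2-STAT5 list, 11 of 24 tested members were called higher and 10 lower, and the median was 0.066, or -0.75 with library sizes only, where 8 were higher and 14 lower, and between -0.042 and 0.17 when 1 library was left out, the lowest without progenitor replicate 2. Epor stood at 236 and 248 CPM in erythroblasts against 19.9 and 21.2 CPM in progenitors (log2 fold change 3.56, SE 0.10, edgeR adjusted p = 4.32e-12). Among targets of STAT5, the survival gene Bcl2l1 (BCL-XL) stood at 541 and 524 CPM in erythroblasts against 17.9 and 17.6 CPM in progenitors, Cish, a feedback inhibitor, was 7.49-fold higher and the kinase gene Pim1 4.89-fold higher. Plek2 (chromosome 12, 78888691 to 78906964) stood at 108 and 129 against 1.36 and 0.708 CPM (log2 fold change 6.90, SE 0.19, edgeR adjusted p = 3.17e-12). Members called lower included the transcription factor genes Stat5a and Stat5b: Stat5a stood at 34.9 and 35.9 against 72.4 and 75.7 CPM and Stat5b was 1.60-fold lower. Sh2b3 (LNK), which restrains JAK2, was 2.12-fold lower at 23.99 and 19.9 against 49.6 and 43.9 CPM. Socs2 was not called (0.13, edgeR adjusted p = 0.585).

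In some pairs of related genes the erythroid form was higher and its relative lower. Of 27 pairs of related genes in which 1 member was listed as the erythroid or late form, 26 had both members tested. In 12 of these the erythroid form was called higher and its relative lower, in 9 both were higher, in 2 (Cdk4 with Cdk6 and Stat5b with Stat3) both lower and in 2 the listed form was lower and its relative higher; in the last, Prdx2 was higher and Prdx1 was not called. Gata2, the GATA factor of stem cells, stood at 2.57 and 2.78 CPM in erythroblasts against 27.2 and 27.5 CPM in progenitors, opposite to Gata1. Bcl2 stood at 16.5 and 12.01 CPM in erythroblasts against 119.8 and 119.7 CPM in progenitors, opposite to Bcl2l1, and per kilobase the ratio of Bcl2l1 to Bcl2 was 0.296 in progenitors and 74.5 in erythroblasts. The D cyclins exchanged as well: Ccnd2 was 3.17-fold lower and Ccnd3 3.31-fold higher, with a per-kilobase ratio of 0.584 and 6.13. The broadly expressed beta-spectrin Sptbn1 (listed as Spnb2) was 2.85-fold lower while the red cell form Sptb was 91.8-fold higher. In 8 pairs the erythroid form stood below its relative per kilobase in progenitors and above it in erythroblasts, as the plot of pairs shows, and in 12 it was the more abundant already in progenitors. The pairs were chosen with earlier results known, so these counts describe the pairs alone.

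Other pairs did not exchange. Slc2a3 was higher (0.76, below 0 with library sizes only) and Slc2a1, which was listed as the erythroid form, was lower (-1.01). Slc2a4, another glucose transporter gene, was not in this pair and was higher (9.40). Mllt3, a cofactor known for stem cell maintenance, was 4.95-fold higher while Mllt1 was lower (-0.72). Pklr, the red cell pyruvate kinase, was 2.65-fold higher, but per kilobase it stayed below Pkm (listed as Pkm2), at 0.728 times its level in erythroblasts. Tspo2, the erythroid translocator protein, was 30.4-fold higher and stayed below Tspo, at 0.378 times. Lmna, which stiffens the nuclear envelope, was 16.6-fold higher, from 421 and 482 against 28.9 and 25.7 CPM, and per kilobase was at 0.6004 times the level of Lmnb1 in erythroblasts and 0.0431 times in progenitors.

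**Figure D4:**
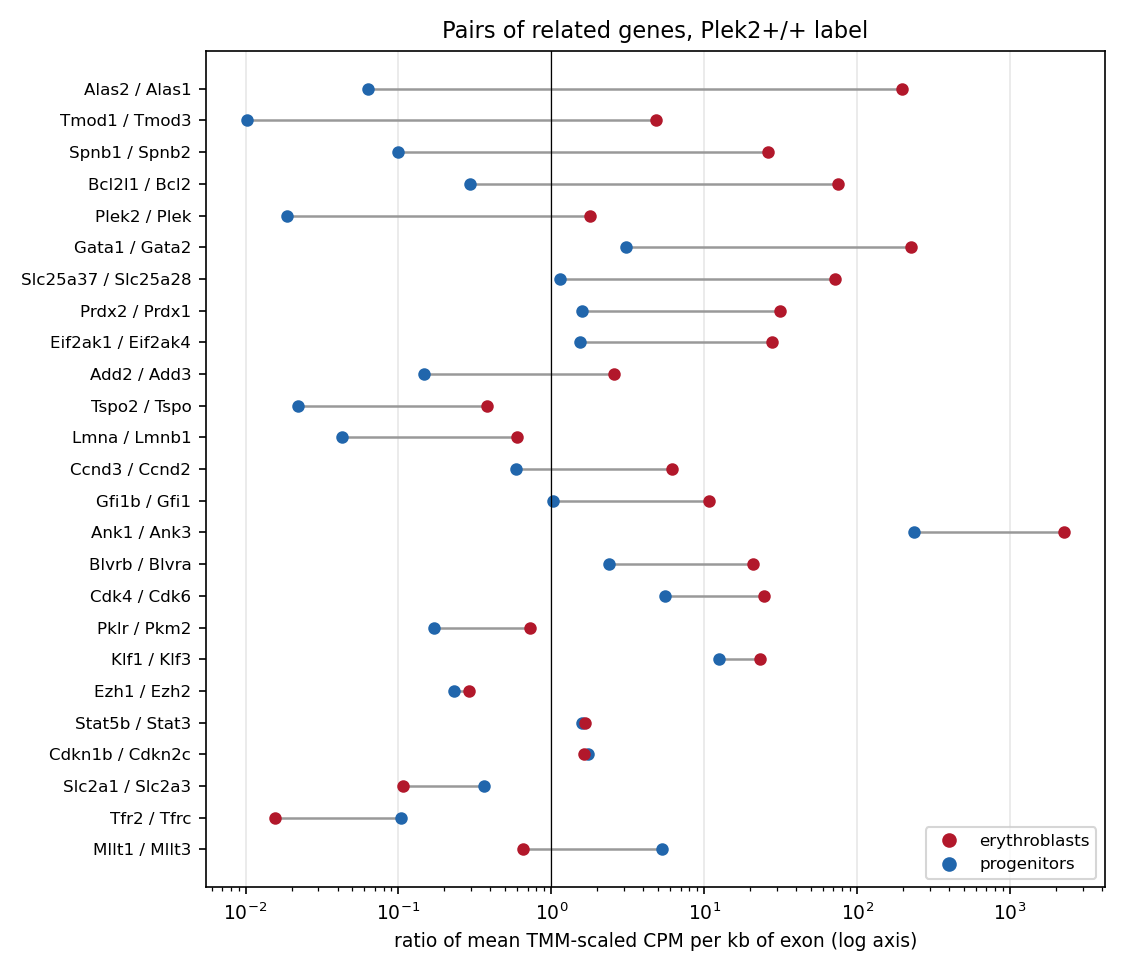
For pairs of related genes (erythroid form / other form), the ratio of their mean TMM-scaled CPM per kilobase of exon (log axis) in erythroblasts (red) and progenitors (blue), 2 libraries each, labelled Plek2+/+. Points right of the line at 1 mean that the erythroid form was the more abundant; in pairs such as Alas2 / Alas1 and Tmod1 / Tmod3 at the top the blue point lies left and the red point right of it.

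Genes of the last steps of maturation were already high in this sort, where 36.0% of all tested genes were called higher and 37.8% lower. Of the late maturation and clearance list, 32 of 35 tested members were called higher and 1 lower (median 4.42, quartiles 2.40 to 5.06), the highest median of the lists after the globins. Ypel4, of unclear function, stood at 126 and 130.0 CPM in erythroblasts against 0.657 and 0.169 CPM in progenitors. Ubiquitin enzymes that remodel the proteome of reticulocytes were among them, such as Ube2o at 5.90 and Ube2l6 at 6.74, as was Bnip3l (NIX), the receptor that removes mitochondria, at 854 and 885 against 72.04 and 68.9 CPM. Other members were Car2, a carbonic anhydrase, at 8332 and 9732 against 358 and 367 CPM, Xpo7, a nuclear exportin needed for nuclear condensation, at 4107 and 4114 against 123 and 127 CPM, and Trak2, of mitochondrial transport, at 2302 and 2566 against 101 and 96.00 CPM. The member called lower was Arhgdib (-0.89), an inhibitor of small GTPases that leukocytes express highly.

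Glycolysis and defence against oxidants were shifted gene by gene. The shares of all tested genes were 36.0% called higher and 37.8% lower. Of the glycolysis list, 9 of 23 tested members were called higher and 13 lower (median -0.51), and 5 were higher with library sizes only. Bpgm, which makes the bisphosphoglycerate that lowers the oxygen affinity of hemoglobin, stood at 1604 and 1660.1 CPM in erythroblasts against 11.97 and 13.2 CPM in progenitors (log2 fold change 7.02, SE 0.12, edgeR adjusted p = 2.07e-13), and the lactate carrier Slc16a1 at 1042 and 1231 against 158 and 161 CPM. Hexokinase Hk1 and the muscle form of phosphofructokinase, Pfkm, which red cells use, were 2.74-fold and 2.88-fold higher, while Hk2 (-1.08) and the platelet form Pfkp (-1.58) were lower. Gapdh had 35 and 49 reads in erythroblasts and 94 and 109 in progenitors and Eno1 is listed at 0, although every cell uses these enzymes, so genes with many processed copies are uncertain in these counts. Of the antioxidant enzymes, 20 of 26 tested members were called higher and 1 lower, with a median of 0.81, or -0.0080 with library sizes only, where 12 were higher and 11 lower; the lower call was lost with DESeq2 and without any 1 of the 4 libraries. Prdx2, the major peroxiredoxin of red cells, stood at 2508 and 2912 CPM in erythroblasts against 134 and 135 CPM in progenitors, glutathione peroxidase Gpx1 at 5406 and 6122 against 671 and 704 CPM and catalase, Cat, at 1019.7 and 1024 against 106 and 98.8 CPM, whereas Prdx1 did not pass the test (0.043, edgeR adjusted p = 0.670).

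Proliferation genes were higher in erythroblasts than in the Kit+ progenitors. Over all tested genes 36.0% were called higher and 37.8% lower. Of the mitosis genes, 38 of 38 tested members were called higher and 0 lower, 37 of them over 2-fold higher (median 1.80), and of the DNA replication genes 40 of 42 were higher and 0 lower (median 1.19). Mki67, the proliferation marker, stood at 10507 and 12843 CPM in erythroblasts against 1681 and 1709.9 CPM in progenitors, Top2a at 3038 and 3710.1 against 1099 and 1098 CPM and cyclin Ccna2 at 1295 and 1587 against 271 and 274 CPM. The origin gene Orc1 was 6.75-fold higher and the cyclins Ccne1 and Ccne2, which start S phase, were 5.69-fold and 6.38-fold higher. Several inhibitors of the cycle were higher too: Rb1 stood at 578 and 669 CPM in erythroblasts against 96.8 and 91.1 CPM in progenitors, Cdkn2d at 223 and 276 against 42.1 and 46.97 CPM, Cdkn2c at 109.9 and 139 against 21.8 and 21.1 CPM and Cdkn1b was 5.49-fold higher. Cdkn1a (p21) was called lower at 8.26 and 7.06 against 11.3 and 9.81 CPM (-0.45, edgeR adjusted p = 0.0306), a call lost with DESeq2 and without either erythroblast replicate or progenitor replicate 1. Members called lower included Myc at 23.9 and 20.8 against 79.4 and 85.4 CPM, Cdk6 at 44.1 and 35.2 against 206 and 217 CPM and Ccnd2 at 62.2 and 50.9 against 179 and 180.4 CPM. In the list of D cyclins, G1 kinases and inhibitors 9 of 18 were higher and 8 lower (median 0.33, or -0.49 with library sizes only, where 6 were higher and 9 lower), and the median was 0.57 without erythroblast replicate 1 and 0.17 without erythroblast replicate 2.

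Stem cell genes were lower nearly throughout. The lists here stand beside 36.0% of all tested genes called higher and 37.8% lower. Of the stem and multipotent progenitor genes, 2 of 40 tested members were called higher and 34 lower, 29 over 2-fold lower (median -1.44, quartiles -2.49 to -0.92). Flt3, a receptor of lymphoid-primed progenitors, stood at 9.73 and 10.9 CPM in erythroblasts against 101 and 94.6 CPM in progenitors, the transcription factor gene Myb at 149.8 and 139.9 against 530.2 and 547 CPM and Etv6 at 37.9 and 37.3 against 184 and 197 CPM. Homeobox genes were lower, with Hoxa9 at -1.66 and its partner Meis1 at -2.51. The members called higher were Mllt3 and Lyl1 (0.60, below 0 with library sizes only), a relative of Tal1. Growth factor receptors were mostly lower: 23 of 31 were lower and 4 higher (median -0.76), or 1 higher with library sizes only. Il3ra, for interleukin-3, was 4.40-fold lower and Notch2 2.16-fold lower, while Tfrc was the member over 2-fold higher. Of the adhesion and integrin genes, 4 of 21 tested members were called higher and 14 lower (median -0.89). Cd93 stood at 94.6 and 80.4 CPM in erythroblasts against 443 and 437 CPM in progenitors and Emb, embigin, at 113 and 128 against 445 and 480.2 CPM. Itga4 and Itgb1, which form the integrin VLA-4 that holds erythroblasts to macrophages, were called higher (0.78 and 0.90); with library sizes only Itga4 has the opposite sign and Itgb1 is not called, and 2 members were higher without progenitor replicate 2.

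Granulocyte genes split by stage, beside 36.0% of all tested genes called higher and 37.8% lower. Of the primary granule genes, which early granulocyte precursors express, 3 of 20 tested members were called higher and 15 lower (median -1.003): Mpo stood at 368 and 389.7 CPM in erythroblasts against 2683 and 2983 CPM in progenitors, and cathepsin G, Ctsg, at 87.1 and 109 against 392 and 499 CPM. The late neutrophil genes lay on the other side, with 23 of 27 higher and 0 lower in erythroblasts (median 1.33). S100a8 and S100a9, the calprotectin subunits, stood at 4701 and 5455 CPM in erythroblasts against 1609 and 1007 CPM in progenitors and 6758 and 8024 against 2462 and 1453 CPM, and the lactoferrin gene Ltf at 2796 and 3205 against 1079.5 and 577 CPM. The list took 1.82% and 1.998% of the counts in the erythroblast libraries and 1.31% and 0.866% in the progenitor libraries. Progenitor replicate 1 stood above progenitor replicate 2 for these genes, and both stood below the erythroblasts. With the Plek2-/- label 0 members were higher and 26 lower, with a median of -0.83, and the difference between the labels was called for 27 of 27. Of all tested genes, 37.5% were higher and 39.2% lower with the Plek2-/- label, and 5.55% differed between the labels. With library sizes only 15 late neutrophil genes were higher and 3 lower with the Plek2+/+ label. The TER119+ cells came straight from marrow and the Kit+ cells from lineage-depleted marrow, and the part of that step in these levels was not tested.

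Transcription factors of the myeloid branch had 8 of 18 lower and 5 higher, with a median of -0.12, or 0.0021 without erythroblast replicate 2 and -0.94 with library sizes only, where 2 were higher and 14 lower. Runx2 stood at 10.7 and 7.60 CPM in erythroblasts against 90.2 and 96.8 CPM in progenitors, Irf8, of monocytes and dendritic cells, at 84.7 and 97.9 against 436 and 477 CPM, and Runx1 was 2.52-fold lower. Of the eosinophil, basophil and mast cell genes, 2 of 17 tested members were called higher and 8 lower (median -0.36, or -0.59 without progenitor replicate 1); 1 was higher with DESeq2, with library sizes only and without erythroblast replicate 1, and 4 were higher with a replicate block over the 4 libraries. Basophil and mast cell genes were among the lower ones: Prss34 stood at 53.4 and 54.6 CPM in erythroblasts against 490.3 and 527 CPM in progenitors, Mcpt8 at 23.1 and 27.6 against 198 and 212 CPM and Cpa3 was 6.48-fold lower. The eosinophil granule genes Epx (381 and 435 against 437 and 612 CPM) and Prg2 (1549 and 1874 against 1567 and 2030.2 CPM) were abundant in both sorts and did not pass the test (edgeR adjusted p = 0.145 and 0.849). Il1rl1 (ST2) was called higher (3.18-fold). Beside both lists, 36.0% of all tested genes were called higher and 37.8% lower.

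Most macrophage and monocyte genes were higher in the erythroblast sort, beside 36.0% of all tested genes called higher and 37.8% lower. Of the macrophage and monocyte genes, 20 of 24 tested members were called higher and 4 lower, 18 over 2-fold higher (median 3.43, quartiles 1.01 to 5.50). The complement genes C1qa and C1qc, which tissue macrophages make, stood at 139 and 129 CPM in erythroblasts against 2.30 and 2.63 CPM in progenitors and 139 and 134 against 2.25 and 2.53 CPM. Mertk, a receptor for dying cells and expelled nuclei, stood at 29.1 and 26.8 against 0.329 and 0.607 CPM, and Vcam1, which macrophages of erythroblastic islands present to erythroblasts, was 20.04-fold higher. Ly6c2 and Ccr2, which inflammatory monocytes carry, Cx3cr1 and the receptor gene Csf1r, a marker of the whole lineage, were called lower: Ly6c2 stood at 145 and 160.1 against 380.0 and 419 CPM, Ccr2 at 213 and 215 against 439.5 and 510.4 CPM, Cx3cr1 at -0.66 and Csf1r at -0.39, the last pair not called without erythroblast replicate 2. Per length, C1qa was at 129 CPM per kilobase in erythroblasts and Alas2 at 3303, while the red cell ankyrin gene Ank1 stood at 128.

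Lymphoid genes were lower, from low levels. For the lists below, the shares of all tested genes were 36.0% called higher and 37.8% lower. Of the T and NK cell genes, 1 of 25 tested members were called higher and 24 lower (median -2.89), the lowest median of the lists. Cd28 stood at 1.16 and 0.611 against 12.3 and 12.4 CPM and Thy1 at 1.78 and 1.36 against 15.6 and 14.5 CPM. The exception, Cd4, a co-receptor of helper T cells that some myeloid cells also carry, stood at 15.1 and 15.8 CPM in erythroblasts against 7.47 and 6.54 CPM in progenitors (log2 fold change 1.15, SE 0.19, edgeR adjusted p = 1.03e-04), and was not called with library sizes only. Of the B cell genes, 1 of 24 tested members were called higher and 16 lower (median -0.68; 2 were higher without progenitor replicate 1, and 0 without progenitor replicate 2 or with library sizes only), with Dntt, the DNA polymerase of receptor recombination, at 22.6 and 18.1 against 96.1 and 81.4 CPM and Pax5 2.96-fold lower. Of the MHC class II genes, 3 of 10 tested members were called higher and 5 lower (median -0.54): the antigen-presenting chains H2-Aa, H2-Ab1 and H2-Eb1 were the higher ones (1.10, 0.79 and 1.41; with library sizes only H2-Ab1 has the opposite sign and H2-Aa is not called), and the peptide loader H2-DMa was lower (-1.69). Of the megakaryocyte and platelet genes, 13 of 30 tested members were called higher and 7 lower (median 0.030, or -0.78 with library sizes only, where 6 were higher and 18 lower); 8 were higher without erythroblast replicate 1 or progenitor replicate 2, and the median lay at or below -0.0070 without either of these or progenitor replicate 1. Gp9, of the von Willebrand factor receptor, and Ppbp were 5.89-fold and 5.27-fold higher, whereas Pf4 (-0.12, edgeR adjusted p = 0.523) and Itga2b (-0.17, edgeR adjusted p = 0.227) did not pass the test. Of the endothelial and stromal genes, 6 of 14 tested members were called higher and 3 lower (median 0.36, or -0.45 with library sizes only, where 6 were higher and 6 lower, 0.046 without erythroblast replicate 1 and 0.69 without erythroblast replicate 2), with collagen Col1a1 at 149 and 143 against 19.7 and 17.1 CPM and vimentin, Vim, at 187 and 192 against 544 and 575 CPM.

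Genes that build ribosomes were mostly lower, and those of ribosomal proteins differed by little. For the lists here, the shares of all tested genes were 36.0% called higher and 37.8% lower. Of the ribosome biogenesis genes, 2 of 40 tested members were called higher and 26 lower (median -0.47): Tcof1, treacle, which promotes ribosomal RNA transcription, stood at 35.5 and 26.00 CPM in erythroblasts against 99.8 and 105 CPM in progenitors, and Rrp1b was 2.32-fold lower. Ubtf, the activator of ribosomal RNA genes, was called higher (0.96; not called with library sizes only). Of the cytosolic ribosomal protein genes, 34 of 77 tested members were called higher and 3 lower, 0 over 2-fold higher, with a median of 0.19, or -0.62 with library sizes only, where 0 were higher and 61 lower, and 22 higher without progenitor replicate 1. The median was 0.30 without erythroblast replicate 1, and of the lower calls 1 was left without either erythroblast replicate or with DESeq2 and 0 without progenitor replicate 2; many of them have processed copies and near-zero counts and are uncertain. Of the respiratory chain subunits, 61 of 73 tested members were called higher and 0 lower, 6 over 2-fold, with a median of 0.56, or -0.26 with library sizes only, where 5 were higher and 40 lower. The direction of the lists of ribosomal proteins and of the respiratory chain depends on the scaling, unlike that of the heme, membrane and stem cell lists.

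The proteasome changed in parts, beside 36.0% of all tested genes called higher and 37.8% lower. Of its genes, 35 of 42 tested members were called higher and 4 lower, with a median of 0.73, or -0.088 with library sizes only, where 10 were higher and 16 lower. The regulators Psme3 (PA28 gamma) and Psmf1 (PI31) were 5.35-fold and 5.84-fold higher, Psme3 at 556 and 501 against 91.99 and 105 CPM. The 3 catalytic subunits of the immunoproteasome, which makes peptides for MHC class I, were lower: Psmb8 stood at 65.4 and 59.5 CPM in erythroblasts against 187 and 190.3 CPM in progenitors, Psmb9 was 2.08-fold lower and Psmb10 2.42-fold lower. Of the interferon response and MHC class I genes, 17 of 34 tested members were called higher and 12 lower, with a median of 0.27, or -0.54 with library sizes only, where 9 were higher and 19 lower. Rsad2 (viperin) stood at 2615 and 2282 CPM in erythroblasts against 14.8 and 14.9 CPM in progenitors (log2 fold change 7.36, SE 0.14, edgeR adjusted p = 2.81e-13), and Isg15 at 205 and 174 CPM in erythroblasts against 2.44 and 2.09 CPM in progenitors. Nlrc5, the activator of MHC class I genes, was lower at 31.3 and 27.4 against 95.00 and 99.9 CPM, as was the GTPase gene Gbp3 (3.12-fold), and members of the list lay on both sides.

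Genes of the integrated stress response were mostly higher in erythroblasts. In erythroblasts it is known to be driven by HRI, the kinase encoded by Eif2ak1, which senses a lack of heme. Of the list, 21 of 28 tested members were called higher and 3 lower, each higher one over 2-fold (median 2.12). The shares of all tested genes were 36.0% higher and 37.8% lower. Eif2ak1 was 9.74-fold higher and the amino acid sensing kinase gene Eif2ak4 1.85-fold lower. Atf4 was 4.83-fold higher, and its targets Trib3 and Atf5 stood at 490.0 and 355 CPM in erythroblasts against 1.41 and 1.45 CPM in progenitors and 130.4 and 102 against 3.43 and 3.57 CPM. Slc6a9, the glycine carrier that feeds heme synthesis, stood at 402 and 395 CPM in erythroblasts against 2.02 and 1.42 CPM in progenitors. Ppp1r15a (GADD34), which ends the response, stood at 1122 and 937 against 32.2 and 35.9 CPM, and the alanyl-tRNA synthetase Aars at 898 and 924 against 116 and 119 CPM. Phgdh and Psat1, of serine synthesis, were 2.74-fold and 1.54-fold lower, whereas Psph of the same route was not among the members called lower.

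Survival, chromatin and actin genes showed single large moves within mixed lists. Among all tested genes 36.0% were called higher and 37.8% lower, and a list near those shares does not stand out by its counts. Of the BCL2 family, 6 of 18 tested members were called higher and 5 lower, with a median of 0.046, or -0.77 with library sizes only, where 5 were higher and 11 lower, -0.14 in a fit of the 4 libraries alone, and -0.0059 without progenitor replicate 1; 3 were lower without erythroblast replicate 2; beside the exchange of Bcl2 for Bcl2l1, Mcl1 was called higher (0.58, below 0 with library sizes only) and Bid lower (-0.77). Of the chromatin genes, 18 of 35 tested members were called higher and 12 lower (median 0.19, or -0.62 with library sizes only, where 5 were higher and 25 lower, and 0.31 without erythroblast replicate 1): the methylcytosine dioxygenase Tet1 and the DNA methyltransferase Dnmt3b were 5.88-fold and 5.39-fold lower, and the lamin B receptor gene Lbr stood at 1778 and 2133 against 571 and 573 CPM. Of the actin and cofilin pathway, 19 of 53 tested members were called higher and 25 lower (median -0.14, or -0.95 with library sizes only, where 6 were higher and 42 lower), with Limk1, the kinase that inactivates cofilin, at 6.49 and 4.14 against 26.4 and 29.8 CPM and the non-muscle myosin gene Myh10 at 301 and 316 against 66.4 and 62.5 CPM; Actb did not pass the test (0.088, edgeR adjusted p = 0.472). Of the cholesterol genes, 11 of 25 tested members were called higher and 5 lower (median 0.26, or -0.56 with library sizes only, where 1 was higher and 18 lower), and 7 were higher without erythroblast replicate 2 or progenitor replicate 1; the median was 0.41 without erythroblast replicate 1, where 3 were lower, and 0.17 without erythroblast replicate 2. Fdft1, squalene synthase, was 4.82-fold higher and Dhcr7 3.14-fold lower. Of the immediate-early genes, which respond within minutes to handling and to growth factors, 6 of 18 tested members were called higher and 8 lower (median -0.62, or -1.44 with library sizes only, where 1 was higher and 13 lower): Jun stood at 26.7 and 25.7 against 166 and 163 CPM, Egr1 at 2.94 and 1.76 against 24.00 and 24.3 CPM and the antiproliferative gene Btg2 at 626 and 707 against 132 and 116 CPM.

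**Figure D5:**
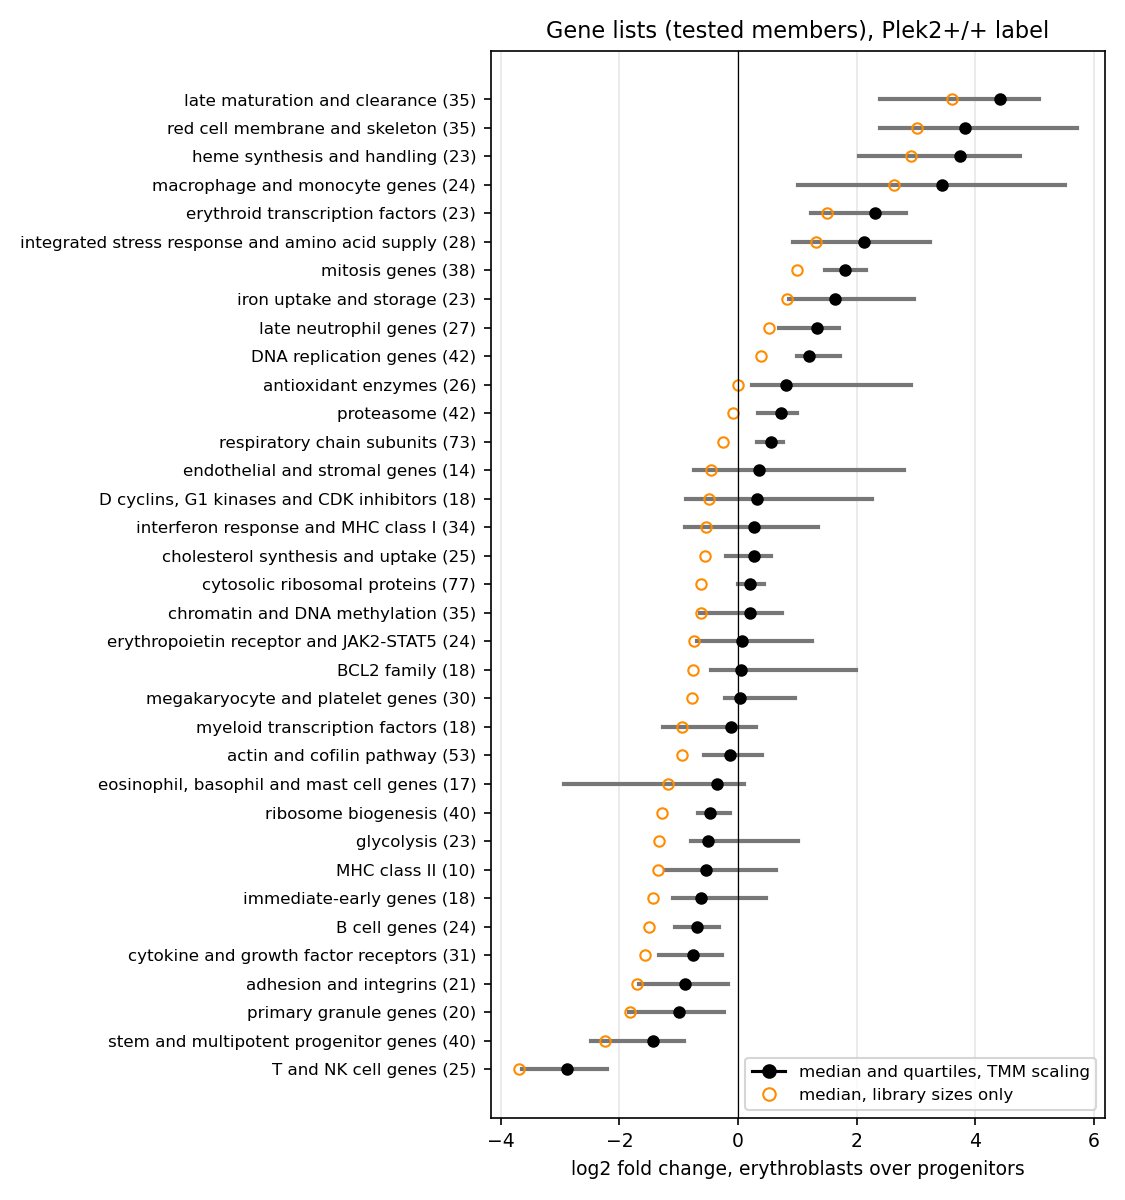
Median log2 fold change (black points) and quartiles (bars) of the tested members of 35 gene lists, with their number in brackets, erythroblasts over progenitors labelled Plek2+/+, by TMM scaling; open orange circles are the medians with library sizes only. Lists of maturation, membrane, heme, macrophage and stress genes lie right of 0 and those of stem cell and T cell genes left under both scalings, while those between the antioxidant enzymes and the megakaryocyte genes lie on the other side of 0 with library sizes only.

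The libraries labelled Plek2-/- offer the same comparison in other samples, with no library shared. Of the 9865 genes called in the Plek2+/+ libraries 8711 were called in the same direction there, which is 88.3% of these and 84.98% of the 10251 calls there (76.7% of genes, 37.5% higher and 39.2% lower), and 175 were called in opposite directions. Alas2 had log2 fold changes of 10.30 and 9.34, Slc4a1 9.89 and 9.06, and Cd34 -3.33 and -3.42. The difference between the contrasts, tested as an interaction, was called higher with the Plek2+/+ label for 711 genes (5.32%) and lower for 31 (0.232%), together 5.55% of genes, and sex goes with the label in each. Plek2 had the largest difference among genes with a mean of 20 counts or more, 3.66, SE 0.26, edgeR adjusted p = 6.34e-05: its ratio was 119-fold with the Plek2+/+ label and 9.41-fold with the other. The next were Slc6a12 (3.18, SE 0.58, edgeR adjusted p = 0.00522), Orm1 (3.11), an acute phase protein gene, Foxd4 (3.09) and Inhba (2.97), of the activin subunits. Slc6a12, Orm1 and Inhba were called higher in erythroblasts with the Plek2+/+ label and lower with the other, and Foxd4 was called with the other label alone (lower, -2.03); the call of Slc6a12 with the Plek2+/+ label was lost without erythroblast replicate 2 or progenitor replicate 2 and with library sizes only. At the low end stood the cell cycle inhibitor Cdkn1a (-1.09), Xist (-0.89), the lysosomal protease gene Lgmn (-0.88) and Gmpr (-0.70). The counts of differing genes rest on single libraries: without progenitor replicate 2 of the Plek2+/+ label 399 were higher and 2 lower, and without erythroblast replicate 1 of the Plek2-/- label 1140 were higher.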

How the data were processed

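Gene expression was measured by RNA sequencing in 8 libraries, of which 4 are compared here. The authors deposited raw read counts for 23337 gene symbols and a second table of the same counts divided by 1 size factor per library, a normalised signal from which those factors alone were read. The submitters' processing notes list HTSeq 0.6.1pl, STAR 2.5.2a, DESeq2 1.14.1 and cutadapt 1.13, with mm10 as the build of the mouse genome; what each did, the annotation and the use of strand were not given in the sources read. Genes that overlap, or share reads with copies, are therefore uncertain.

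Raw counts were tested with edgeR 4.0.16 in R 4.3.3 (quasi-likelihood test, TMM scaling, filterByExpr with a minimum count of 10). One fit held all 8 libraries in 4 groups, so that the groups share 1 estimate of the spread, and 13365 genes passed the filter. P-values were adjusted by Benjamini-Hochberg over all of them and called below 0.05. Replicates differed by more than sampling noise (chi-square per degree of freedom 5.92 for progenitors and 8.85 for erythroblasts). In simulated data all groups had the progenitor means, and 200 of 13365 genes were changed, equally up and down. There the fit recovered 92% of 2-fold and 100% of 4-fold changes, with 6.34% false calls. In the real data 73.8% of genes were called, so these rates need not hold for them. Alternatives were DESeq2 1.42.0, limma 3.58.1 (voom), other size factors, library sizes only, TMM without globin genes, no filter, a test against 2-fold, a replicate block, the 4 libraries alone and each library left out. The floor for a count of 0 is 3 counts per library, which with other bounds covers counting error only.

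The members and the 36 gene lists were chosen with earlier results of these data known. Genes were named by rule: the 12 highest and 12 lowest called genes at 100 CPM or more; from each list the 3 called members with the largest change at 10 CPM or more, the 3 with the most reads and up to 3 called against the majority; pairs of related genes; markers; and the 5 highest and 5 lowest differences between the labels at a mean of 20 counts. Other list members were named for their role, after their values were seen. Some items that these rules name are not reported here. Of the gene symbols, 22869 (97.99%) were placed on mm10 by GENCODE or RefSeq names, from which coordinates and exon lengths come.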

Additional observations from a re-analysis of the deposited data

Results flagged for a closer look

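The ratio of erythroblasts to progenitors was not the same under both labels for 711 genes, where it was higher with the Plek2+/+ label, and for 31 genes, where it was lower, by edgeR's test of the difference itself. The values in brackets are the log2 ratio with the Plek2+/+ label minus that with the Plek2-/- label. Among the genes named here the ratio was higher with the Plek2+/+ label for Plek2 (3.66), Slc6a12 (3.18), Orm1 (3.11), Foxd4 (3.09), Inhba (2.97), Ltf (2.65), S100a8 (2.45) and S100a9 (2.41). The neutrophil genes in this group were higher in erythroblasts with the Plek2+/+ label. Each of the 27 tested late neutrophil genes differed between the labels, beside 5.55% of all tested genes. Smaller differences in the same direction were called for Alas1 (0.45), Slc2a1 (0.90), Slc2a3 (1.47), Hk2 (0.77), Cdkn2d (0.56), Rsad2 (0.86), Mcl1 (0.47) and Ifit1 (0.81). The ratio was lower with the Plek2+/+ label for Xist (-0.89), Cdkn1a (-1.09), Il1rl1 (-0.47), Lgmn (-0.88) and Gmpr (-0.70). All libraries of 1 label also share the sex pattern of Xist, so label and sex cannot be told apart in any of these values.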

How the results depend on the processing

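With library sizes only, 2111 genes were higher and 9171 lower, 1222 were over 2-fold higher and 5939 over 2-fold lower, and with the Plek2-/- label 2307 were higher and 8957 lower; the median of all genes was -0.87, and -0.029 with DESeq2 size factors. The list medians that changed sign with library sizes only were those of erythropoietin receptor and JAK2-STAT5 -0.75, antioxidant enzymes -0.0080, megakaryocyte and platelet genes -0.78, endothelial and stromal genes -0.45, D cyclins, G1 kinases and CDK inhibitors -0.49, cytosolic ribosomal proteins -0.62, respiratory chain subunits -0.26, proteasome -0.088, BCL2 family -0.77, interferon response and MHC class I -0.54, chromatin and DNA methylation -0.62 and cholesterol synthesis and uptake -0.56, and among named genes Socs2 -0.68, Slc2a3 -0.057, Prdx1 -0.77, Lyl1 -0.21, Itga4 -0.033, H2-Ab1 -0.025, Mcl1 -0.23, Actb -0.73 and Stat2 -0.50. Tested against 2-fold, 1866 genes were higher and 1562 lower. Without the low count filter 1129 genes differed between the labels upward and 86 downward. Leaving out 1 library gave 4312 to 4772 higher and 4060 to 4488 lower genes, 399 to 1140 and 2 to 50 genes that differed between the labels, and a median of all genes of -0.061 to 0.0033; an arm with 1 library is assumed to vary like the other groups. Values that changed sign when 1 library was left out ranged for erythropoietin receptor and JAK2-STAT5 from -0.042 to 0.17, myeloid transcription factors from -0.14 to 0.0021, megakaryocyte and platelet genes from -0.027 to 0.29, BCL2 family from -0.0059 to 0.061, Fam38a from -0.12 to 0.087, Socs2 from -0.029 to 0.30, Prg2 from -0.25 to 0.13, Pf4 from -0.28 to 0.13 and Itga2b from -0.38 to 0.11. The BCL2 median was -0.14 with the 4 libraries alone and -0.15 with a replicate block over those 4, and 0.040 with the block over 8 libraries. With the replicate block over 8 libraries 4809 genes were higher and 5032 lower, and over 4 libraries 5014 and 5316. The deviations of erythroblast replicate 1 and progenitor replicate 1 from their group means correlated at 0.046 across genes. That value cannot decide whether same-numbered libraries share an animal or a batch, which need not move the same genes in both populations. Of 3203 values of 214 named genes under these alternatives, 3100 kept direction and call, 71 lost the call (40 of them in the test against 2-fold), 17 gained it and 15 changed sign. DESeq2 called 4693 higher and 4413 lower, limma-voom 4823 and 5027. The cause of these changes was not tested. With 2 libraries a group, precision rests on the spread pooled over 4 groups, and genes of few reads have folds that depend on their counting error.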

Other observations

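Kitl, which encodes the ligand of Kit, was higher in the cells sorted for TER119 than in those sorted for Kit. It stood at 4.59 and 5.91 CPM in erythroblasts against 0.141 and 0.169 CPM in progenitors (log2 fold change 5.01, SE 0.41, edgeR adjusted p = 1.50e-07). In these progenitor libraries 3 counts equal 0.141 and 0.101 CPM, so the fold rests on few reads. Both erythroblast libraries lay above both progenitor libraries, and 89.1% of all tested genes also had no overlap. The stromal ligand gene Cxcl12 lay the same way, at 4.53 and 2.38 against 0.470 and 0.607 CPM. So did the leptin receptor gene Lepr, at 1.04 and 1.02 against 0.0470 and 0.202 CPM. Kitl was chosen after its values were seen. Marrow stroma is a known source of Kitl. The summed stromal markers given above also stood higher in the erythroblast sort, but most of that sum was Col1a1. The wider endothelial and stromal list summed to 465 and 447 CPM in erythroblasts and 655 and 684 CPM in progenitors. The part of stromal cells in the level of Kitl was not tested.

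Within the interferon list the members divided by gene. Rsad2 and Isg15 were 165-fold and 84.3-fold higher in erythroblasts, Ifit1 was 11.3-fold and Irf7 5.07-fold higher, while Mx1, Mx2, Tap1 and H2-K1 were lower, at -0.93, -1.05, -0.94 and -0.78. Stat2, which carries the signal of interferon receptors, stood at 0.32, lies below 0 with library sizes only and was not called without erythroblast replicate 1 or progenitor replicate 2. These members too were chosen after their values were seen. The glucose transporters divided likewise: Slc2a4 was higher, Slc2a1 lower, and Slc2a3 lay above or below 0 with the scaling.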
